A study of Mus musculus with 6 samples.

Results

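Dual-specificity phosphatases remove phosphate from both the threonine and the tyrosine of the activation loop of mitogen-activated protein (MAP) kinases, and so switch off ERK, JNK and p38. Several of their genes are themselves switched on by the same pathways and act as negative feedback, which in macrophages limits the inflammatory response to Toll-like receptor ligands. Nuclear members differ from cytoplasmic ones in where they meet the kinases, and each has its own preference among ERK, JNK and p38. The 9 phosphatase genes described here were Dusp1, Dusp2, Dusp3, Dusp4, Dusp5, Dusp6, Dusp8, Dusp10 and Dusp16, taken with every probe that carries one of these symbols in the platform annotation. They had 18 of the 25697 probes and 8 of the 16593 named genes on the array, since no probe carried the symbol Dusp5, which was not analysed here. At a detection p-value under 0.01, 7 of the 8 were detected on at least 1 array, against 7149 of all named genes.

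The cells were macrophages grown from bone marrow of female mice of strain 129/BL6, cultured with L929-conditioned medium (a source of the growth factor M-CSF) over 5 days. The groups were IRAK2 knockout (KO) cells given R848, KO cells given CpG B, untreated KO cells, wild-type (WT) cells given R848, WT cells given CpG B and untreated WT cells, with both agents at 1 µg/ml and a stimulation of 2 h. R848 activates Toll-like receptor 7 and CpG B oligonucleotides activate Toll-like receptor 9, and both receptors signal through MyD88 and the IRAK kinases, so the comparisons address how the loss of IRAK2 bears on each response. The labels do not state which part of Irak2 was removed or how many mice or cultures lie behind the arrays.

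Each group had 1 deposited Illumina mouseRef-8 v2 bead array, so differences between single arrays carry no p-value, and precision is limited by how few arrays there are. Between 8968 and 9718 probes were detected per array. Of the macrophage markers on the array, 6 of 7 were detected on all 6 arrays, among them Adgre1, Itgam and Cd14, and no marker of T cells, NK cells, fibroblasts, erythroid cells or mast cells was detected on any array. All 6 neutrophil-precursor markers and the B-cell marker Cd79b (1 of 5) were detected on every array. The summed linear level of the dendritic-cell list was 14790 to 20000 in KO and 4619 to 7636 in WT. That sum came from H2-Ab1, H2-Aa, H2-Eb1 and Cd74, while Flt3, Zbtb46, Ccr7, Itgax and Xcr1 were not detected, and the part of this difference in the results between genotypes was not tested. In a bulk sample, fewer cells of a type and less RNA per cell cannot be told apart. The Irak2 probe with the higher mean had log2 levels of 9.88 (R848), 9.55 (CpG B) and 8.46 (untreated) in KO, against 11.85 (R848), 11.09 (CpG B) and 9.03 (untreated) in WT. Its signal was thus lower in KO on each of the 3 array pairs but detected in KO. The other probe was lower in KO after R848 (9.50 against 11.38 in WT) and CpG B (9.40 against 10.78). In untreated cells that probe was close between the genotypes (8.31 in KO, 8.42 in WT). Whether either probe lies in the deleted part is not given.

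Promoter sequence was examined for 8 of the 9 genes, those found in the RefSeq table (assembly GRCm38.p6). Printed below are the 250 bases upstream of the annotated start, on the coding strand, of 4 genes that differed in how their signal moved. Dusp1 was higher after R848 in WT, and Dusp2 was higher after R848 in both genotypes. Dusp6 was lower after R848, and Dusp8 was detected only in stimulated KO cells. Capitals mark matches to the cyclic AMP response element TGACGTCA or its core TGACG, searched on both strands, and every match of the longer motif contains the core.
Dusp1, chr17:26508473-26508722, minus strand: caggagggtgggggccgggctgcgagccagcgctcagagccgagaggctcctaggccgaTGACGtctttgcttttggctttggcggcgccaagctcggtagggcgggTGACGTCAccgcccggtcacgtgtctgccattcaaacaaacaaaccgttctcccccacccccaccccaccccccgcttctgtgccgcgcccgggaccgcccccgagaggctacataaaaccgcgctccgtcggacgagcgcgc
Dusp2, chr2:127335909-127336158, plus strand: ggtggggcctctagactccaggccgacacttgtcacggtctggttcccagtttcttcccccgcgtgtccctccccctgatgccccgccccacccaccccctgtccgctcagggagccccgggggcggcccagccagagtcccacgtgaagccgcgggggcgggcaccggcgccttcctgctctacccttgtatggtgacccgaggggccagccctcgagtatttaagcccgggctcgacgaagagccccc
Dusp6, chr10:99262981-99263230, plus strand: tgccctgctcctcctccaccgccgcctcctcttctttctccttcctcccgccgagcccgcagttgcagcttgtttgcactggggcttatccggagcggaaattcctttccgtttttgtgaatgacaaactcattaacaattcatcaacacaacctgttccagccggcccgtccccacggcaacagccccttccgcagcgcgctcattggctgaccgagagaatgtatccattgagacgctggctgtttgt
Dusp8, chr7:142095285-142095534, minus strand, at a start that is not the outermost start of the gene: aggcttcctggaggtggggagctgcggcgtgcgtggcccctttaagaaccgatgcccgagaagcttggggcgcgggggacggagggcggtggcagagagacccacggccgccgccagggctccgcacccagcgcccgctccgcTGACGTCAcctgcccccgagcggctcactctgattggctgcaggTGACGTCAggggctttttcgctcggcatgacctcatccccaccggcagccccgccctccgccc

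The Dusp1 window held TGACGTCA 143 bases upstream of the start and a further TGACG 191 bases upstream. The Dusp8 window held TGACGTCA at 107 and at 63 bases upstream. Of the windows not printed, those of Dusp16 (70 bases upstream) and Dusp5 (55 bases upstream, other strand) held TGACG. The Dusp5 window also held CArG boxes at 82 and 72 bases upstream. TGACGTCA was found in 1.55% and TGACG in 17.8% of the 32851 promoter windows of the same length. The Dusp2 and Dusp6 windows held neither, nor a match to the AP-1 letters TGANTCA, the ETS letters CCGGAAGT, the CArG box or the NF-kB site (found in 6.75%, 2.88%, 1.47% and 3.9% of windows). These are matches of letters in a window and were not tested for binding.

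R848 was followed by higher signal of Dusp2 and Dusp16 and lower signal of Dusp6 in both genotypes, and Dusp8 was detected after stimulation in KO only. In limma with additive terms for agent and genotype, adjusted over 7149 genes, 3 of the 7 tested phosphatases rose and 1 fell after R848. Among all genes 12.1% rose and 17.3% fell (29.4% in either direction), and the median log2 fold change was 0.82 over the 7 phosphatases and -0.08 over all genes. Dusp2 and Dusp8 were detected on stimulated arrays alone and so entered the test only through the groups in which they were high, and their fitted fold changes are taken against untreated signal that was not above background. After CpG B, 1 of the 7 rose (Dusp8) and none fell, against 8.69% of all genes called in either direction, with medians of 0.63 over the phosphatases and -0.04 over all genes. Between single arrays, after R848 5 of 7 phosphatases detected in KO and 4 of 6 in WT were past 2-fold (10.4% and 15.6% of all genes in the same genotypes). After CpG B 4 of 7 in KO and 3 of 6 in WT were (8% and 5.24% of all genes). The KO counts include Dusp8 by its log2 difference, which is taken against background. With undetected signal replaced by its bound, 4 in KO and 4 in WT were past 2-fold after R848, and 3 in KO and 3 in WT after CpG B. Bounds were not counted over all genes, so the percentages above are not a background for these counts. The R848 calls rest on both deposited untreated arrays, as do those of most genes, since the genes called over the whole table numbered 27 without the KO untreated array and 2 without the WT untreated array. The directions held. Without the KO untreated array the limma adjusted p became 0.106 (Dusp2), 0.088 (Dusp16), 0.097 (Dusp6) and 0.103 (Dusp8), with log2 fold changes of 3.96, 2.64, -3.44 and 0.72. Without the WT untreated array it became 0.155, 0.102, 0.184 and 0.059 in the same order of genes, with log2 fold changes of 3.18, 2.38, -2.18 and 1.32.

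**Figure D1:**
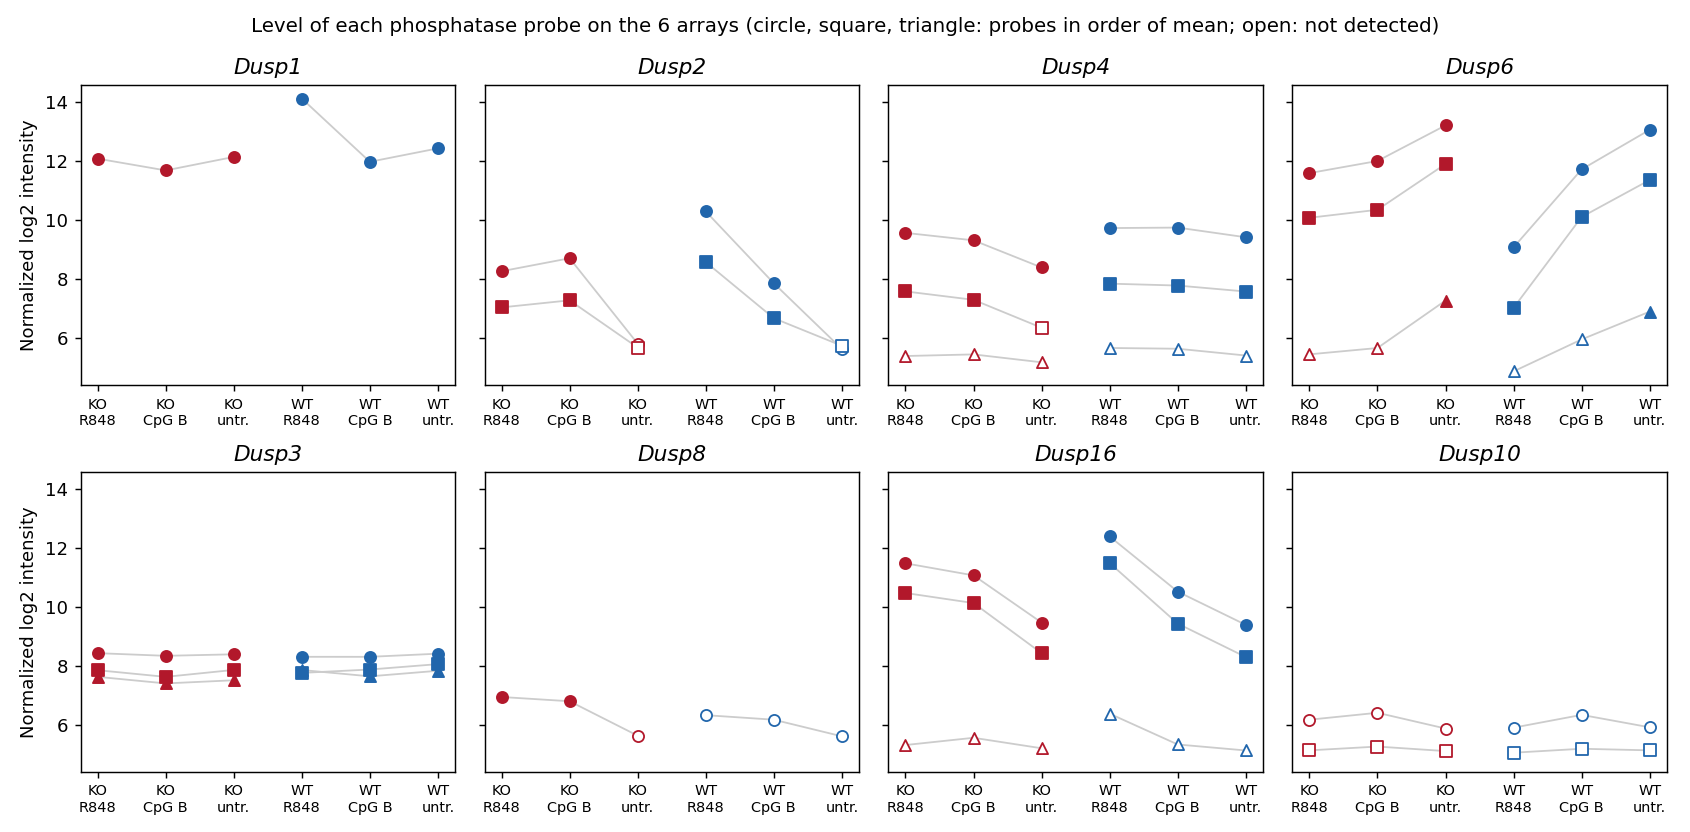
Normalized log2 intensity (y axis) of every probe of the 8 phosphatase genes on each of the 6 arrays (x axis), KO in red and WT in blue, with probes of a gene in order of mean as circles, squares and triangles and open symbols where the probe was not detected. The WT R848 array was the highest for Dusp1, Dusp2 and Dusp16 and the lowest for Dusp6, and the KO array given R848 lay close to the KO array given CpG B for Dusp2, Dusp6 and Dusp16.

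Dusp2 encodes a nuclear phosphatase first known from activated lymphocytes, where it is an early response gene. Its brighter probe had deposited intensities of 265.8 (R848), 342.8 (CpG B) and 42.0 (untreated) in KO, against 1138.6 (R848), 265.7 (CpG B) and 28.9 (untreated) in WT. It was detected on the 4 stimulated arrays and on neither untreated array. The KO level after R848 lay below the KO level after CpG B, whereas the WT level after R848 was the highest of the 6. Because the untreated signal was not above background, the change is a lower bound. In KO it was at least 3.04-fold higher after R848 and at least 4.13-fold higher after CpG B, and in WT at least 12.6-fold higher after R848 and at least 2.32-fold higher after CpG B. The other probe had the same order of stimulated arrays, and its bounds were at least 1.30-fold (R848) and 1.53-fold (CpG B) higher in KO, against at least 3.82-fold (R848) and 1.02-fold (CpG B) higher in WT. Over both genotypes the R848 effect was 3.57 on the log2 scale (SE 0.65, limma adjusted p = 0.0141), while the CpG B effect of 2.57 had an adjusted p of 0.0692. Both effects are taken against that background signal, and Dusp2 entered the test only through the stimulated arrays.

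Dusp16 encodes a phosphatase that acts mainly on JNK and p38 and shuttles between nucleus and cytoplasm. Its brightest probe had intensities of 2559.8 (R848), 1796.4 (CpG B) and 765.2 (untreated) in KO, against 5508.5 (R848), 1761.3 (CpG B) and 686.4 (untreated) in WT. All 4 stimulated arrays were above both untreated arrays, and the highest was WT after R848. The signal was 4.04-fold higher after R848 and 3.04-fold higher after CpG B in KO, and 8.03-fold higher after R848 and 2.19-fold higher after CpG B in WT. In log2 terms these differences were 2.02 and 1.61 in KO and 3.005 and 1.13 in WT, and the next probe gave 2.05 and 1.70 in KO and 3.20 and 1.14 in WT. A further probe was not detected on any array. The R848 effect over both genotypes was 2.51 (SE 0.34, limma adjusted p = 0.00646) and the CpG B effect was 1.37 (adjusted p = 0.0653).

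Dusp6 encodes the cytoplasmic phosphatase specific for ERK, a feedback gene whose transcription follows ERK activity in many cell types. Its intensities were 2761.4 (R848), 3486.7 (CpG B) and 9555.5 (untreated) in KO, against 458.8 (R848), 4097.5 (CpG B) and 8837.3 (untreated) in WT. Each stimulated array lay below both untreated arrays, with WT after R848 the lowest of the 6. In KO the signal was 3.08-fold lower after R848 and 2.31-fold lower after CpG B, and in WT it was 15.98-fold lower after R848 and 2.54-fold lower after CpG B. The next probe gave log2 differences of -1.83 (R848) and -1.56 (CpG B) in KO, against -4.34 (R848) and -1.26 (CpG B) in WT. The dimmest of the 3 probes was detected only on the untreated arrays. Over both genotypes the R848 effect was -2.81 (SE 0.57, limma adjusted p = 0.0194), and the CpG B effect was -1.28 (adjusted p = 0.218). The R848 call of Dusp6 did not hold without the detection filter (limma adjusted p = 0.062) or without the genotype term (adjusted p = 0.056).

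Dusp1 encodes the nuclear phosphatase that inactivates p38 and JNK in macrophages and restrains cytokine production, and it has 1 probe on the array. Its intensities were 3913.9 (R848), 2757.6 (CpG B) and 4503.0 (untreated) in KO, against 18783.3 (R848), 4832.4 (CpG B) and 5502.6 (untreated) in WT. The WT R848 array stood above the other 5, which lay between 2757.6 and 5502.6. The log2 differences from untreated were -0.06 (R848) and -0.46 (CpG B) in KO, against 1.69 (R848) and -0.46 (CpG B) in WT. Neither the R848 effect of 0.82 (SE 0.44, limma adjusted p = 0.215) nor the CpG B effect of -0.46 (adjusted p = 0.555) passed the test over both genotypes. These values depend on which untreated array is used, as given below.

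Dusp4 encodes another nuclear phosphatase, related to that of Dusp1 and active on ERK and JNK. Its brightest probe had intensities of 670.1 (R848), 523.5 (CpG B) and 358.1 (untreated) in KO, against 739.2 (R848), 1039.3 (CpG B) and 699.8 (untreated) in WT. Untreated KO was the lowest of the 6 arrays, and the log2 difference from untreated was 1.18 (R848) and 0.92 (CpG B) in KO, against 0.31 (R848) and 0.33 (CpG B) in WT. The next probe, not detected in untreated KO, was at least 1.89-fold (R848) and 1.55-fold (CpG B) higher in KO, and its log2 differences in WT were 0.27 (R848) and 0.20 (CpG B). The additive R848 effect of 0.74 had a limma adjusted p of 0.0529 (SE 0.22). With an offset of 50 the adjusted p was 0.0382, and on genes detected on all 6 arrays it was 0.0311.

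Dusp8, whose product acts on JNK and p38, was detected only in KO after R848 and after CpG B, at intensities of 99.2 (R848), 83.3 (CpG B) and 32.0 (untreated) in KO, against 54.5 (R848), 66.0 (CpG B) and 27.8 (untreated) in WT. In KO it was at least 1.21-fold higher after R848 and at least 1.10-fold higher after CpG B than in untreated cells, and no fold can be given in WT, where no array was above background. Its limma R848 effect was 1.02 (SE 0.19, adjusted p = 0.0145) and its CpG B effect 0.87 (SE 0.19, adjusted p = 0.0485), both of which rest on signal near background. The R848 call did not hold without the genotype term (adjusted p = 0.061). The CpG B call did not hold with an offset of 50 (adjusted p = 0.0605), in the authors' processed values (0.0823) or without the detection filter (0.109).

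Dusp3 encodes a small atypical phosphatase without the kinase-binding domain of the others. Its brightest probe was almost level, at log2 values of 8.43 (R848), 8.34 (CpG B) and 8.39 (untreated) in KO, against 8.30 (R848), 8.30 (CpG B) and 8.41 (untreated) in WT. Its other 2 probes differed from untreated by between -0.30 and 0.12, and the limma R848 effect was -0.03 (SE 0.12, adjusted p = 0.849). Dusp10, whose product acts on p38 and JNK, had 2 probes, neither detected on any array, so no fold is given.

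**Figure D2:**
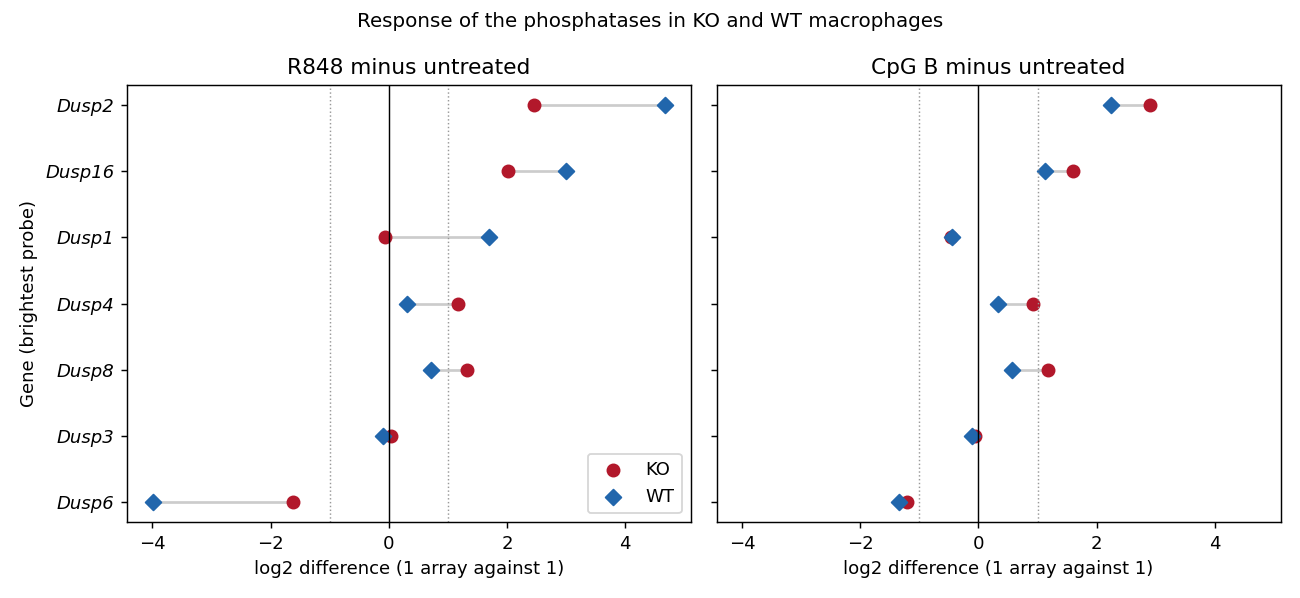
Log2 difference from untreated (x axis, 1 array against 1) of the brightest probe of the 7 detected phosphatases (y axis) after R848 (left panel) and CpG B (right panel), with KO as red circles and WT as blue diamonds and dotted lines at a 2-fold change. After R848 the WT values of Dusp2 (4.68) and Dusp6 (-3.998) lay farther from 0 than the KO values (2.46 and -1.62), the untreated signal of Dusp2 and Dusp8 and all WT signal of Dusp8 being not above background, and after CpG B the genotypes lay within 0.67 of each other for each gene.

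Between the genotypes, most differences past 2-fold were found after R848. There, KO minus WT on the log2 scale was -2.04 for Dusp1, -2.03 for Dusp2 and 2.52 for Dusp6, and these 3 of 7 were past 2-fold, against 4.68% of all genes. It was -0.91 for Dusp16 and -0.16 for Dusp4, and Dusp8, not detected in WT, was at least 1.09-fold higher in KO. After CpG B, 0 of the 7 were past 2-fold (2.73% of all genes), with differences from -0.43 (Dusp4) to 0.85 (Dusp2). In untreated cells 1 of the 5 phosphatases detected there was past 2-fold (2.16% of all genes), Dusp4 at -1.03, and its next probe, not detected in KO, was at least 1.89-fold lower in KO than in WT. In the additive limma fit 0 of the 7 were called for genotype over the 3 conditions, against 3.4% of all genes, and 2 (Dusp4 and Dusp8) had an unadjusted p under 0.05, as did 18.9% of all genes.

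The difference of the R848 responses, KO minus WT, was -1.75 for Dusp1, 2.38 for Dusp6, -0.99 for Dusp16, 0.86 for Dusp4 and 0.15 for Dusp3. The values of -2.21 for Dusp2 and 0.60 for Dusp8 subtract untreated signal that was not above background (for Dusp8, all WT signal), so they do not measure a difference of responses. Of the 7, 3 were past 2-fold by these values (Dusp1, Dusp6 and, against background, Dusp2), against 3.32% of all genes, and for the CpG B responses 0 of 7 were, against 1.26%. The CpG B values were 0.00 for Dusp1, 0.14 for Dusp6, 0.48 for Dusp16 and 0.59 for Dusp4, and those of Dusp2 (0.67) and Dusp8 (0.61) again rest on background. These differences of responses share the untreated arrays. An interaction common to both agents, fitted in limma with 1 residual degree of freedom, called 0 of the 7 and 0% of all genes, and an unadjusted p under 0.05 was found for 1 phosphatase (Dusp4) and 136 genes (1.9%).

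Setting R848 against CpG B within a genotype uses no untreated array. R848 minus CpG B was -0.44 in KO and 2.44 in WT for Dusp2, and -0.41 in KO and -2.65 in WT for Dusp6. It was 0.41 in KO and 1.88 in WT for Dusp16, and 0.40 in KO and 2.15 in WT for Dusp1. In KO the arrays given the 2 agents thus lay at most 0.44 apart for these 4 genes, while in WT the smallest distance was 1.88. The same distances over all genes are not given, so the pattern is not shown to be particular to phosphatases. Among Dusp4, Dusp8 and Dusp3 the largest such difference in either genotype was 0.25 (Dusp4 in KO). With both genotypes together, limma called 0 of the 7 and 0% of all genes between the agents, and 3 phosphatases (Dusp1, Dusp16 and Dusp6) and 941 genes (13.2%) had an unadjusted p under 0.05.

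The authors' processed values behave, for each untreated group, as a mean of 2 arrays, from which a further untreated array per genotype was recovered as described under the processing. Dusp1 was among the genes that differed most between the untreated arrays of a genotype. Its log2 level was 12.10 on the deposited and 10.77 on the recovered KO array, and 12.38 on the deposited and 11.01 on the recovered WT array. The difference was 1.33 in KO and 1.37 in WT, and only 5 of the 7149 genes in KO and 9 in WT (Dusp1 included) differed by as much. Genes that differed at least 2-fold between the pair numbered 21 in KO (0.294%) and 36 in WT (0.504%), and 7 did so in the same direction in both. Besides Dusp1 these were the immediate early genes Egr1 (2.28 in KO, 3.20 in WT) and Fos (1.22 in KO, 1.20 in WT), and Id1, Id3 and Ltf, all higher on the deposited arrays, and Gla, which was lower there.

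**Figure D3:**
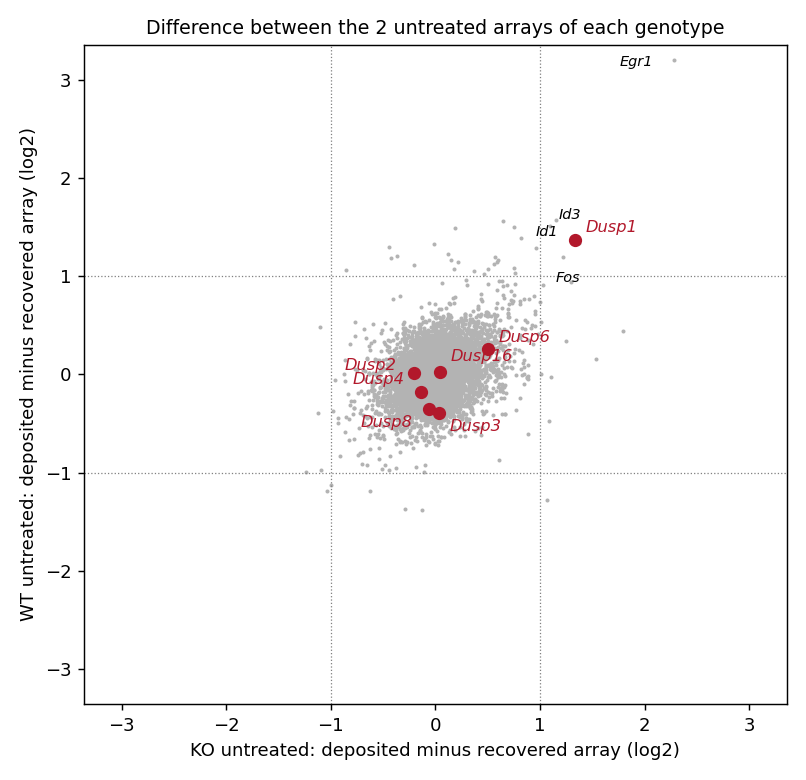
Log2 difference between the deposited and the recovered untreated array in KO (x axis) and in WT (y axis) for 7149 genes (grey points), with the 7 detected phosphatases in red and dotted lines at a 2-fold change. Dusp1 lay at 1.33 in KO and 1.37 in WT near Id1, Id3 and Fos, and the other 6 phosphatases lay between -0.40 and 0.50 on both axes.

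Measured against the recovered untreated arrays, Dusp1 was higher by 1.27 (R848) and 0.89 (CpG B) in KO, against 3.08 (R848) and 0.92 (CpG B) in WT. With those arrays in place of the deposited ones, its additive R848 effect was 2.18 (limma adjusted p = 0.0284) and its CpG B effect 0.91 (adjusted p = 0.281). Values that use the recovered arrays were also normalized in another way, as described under the processing. The direction of the Dusp1 response to CpG B in both genotypes, and to R848 in KO, therefore differed between the untreated arrays, while the KO minus WT difference after R848 does not use them. Dusp6 was lower on the recovered arrays by 0.50 in KO and 0.26 in WT, and its difference after R848 was then -1.12 in KO and -3.68 in WT. The Dusp6 difference after CpG B was then -0.72 in KO, under 2-fold, and -1.08 in WT.

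A limma fit of the 6 group means over 8 arrays, including the recovered ones, was added after these data had been seen. The untreated pairs alone give its spread (2 residual degrees of freedom), so the fit assumes the same spread for stimulated arrays, and that spread may be technical. For Dusp2 and Dusp8 it is the spread of untreated signal that was not above background. It called 5 of the 7 phosphatases for R848 (Dusp2, Dusp4, Dusp6, Dusp8 and Dusp16) and the same 5 for CpG B, against 38.3% and 18.4% of all genes. Within a genotype, R848 was called for 5 of 7 in KO (17.6% of all genes) and for 5 of 7 in WT (29.4%), with Dusp4 called in KO (1.10, adjusted p = 0.00765) and Dusp1 in WT (2.39, adjusted p = 0.04996). Both counts include Dusp8, which was not above background on any WT array, so its WT call (0.71) is no measured rise. The Dusp1 value in KO was 0.61 (adjusted p = 0.609) and the Dusp4 value in WT 0.21 (adjusted p = 0.353). CpG B was called for 4 of 7 in KO (11.3% of all genes) and for 2 of 7, Dusp2 and Dusp16, in WT (5.29%). For genotype over the 3 conditions 2 of 7 were called, Dusp4 (-0.54) and Dusp6 (0.93), against 7.37% of all genes.

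In the same 8-array limma fit, KO minus WT after R848 was -2.01 for Dusp2 (adjusted p = 0.00643), 2.47 for Dusp6 (adjusted p = 0.0132) and -0.88 for Dusp16 (adjusted p = 0.0485), with 3.25% of all genes called. For Dusp1 it was -2.05 (SE 0.81, against 0.18 for Dusp2) and was not called. Each of these values sets 1 stimulated array against 1, with a spread taken from the untreated pairs alone. The wide spread of Dusp1 is thus that of its untreated arrays, and the narrow spread of Dusp2 is that of background. The p-values therefore do not describe the spread of stimulated signal, and the same holds for the calls between the agents given last. In untreated cells Dusp4 was lower in KO by this limma fit (-1.04, adjusted p = 0.0176, 2.42% of all genes called), and after CpG B 0 of the 7 differed between genotypes (1.24% of all genes called), although 3 had an unadjusted p under 0.05, as did 11.6% of all genes. For the R848 response, KO minus WT, 1 of the 7 was called, Dusp2 (-2.38, SE 0.22, limma adjusted p = 0.0374), against 0.154% of all genes. That response and its SE rest on untreated signal below background, so the call does not describe the spread of the stimulated signal. Dusp6, detected on every array, had 2.43 (SE 0.34, limma adjusted p = 0.0890). For the CpG B response 0 of 7 and 0% of all genes were called (2 phosphatases and 4.27% of all genes at an unadjusted p under 0.05), and for the interaction common to both agents 0 of 7 and 0.014% of all genes (4 phosphatases and 5.22% of all genes at an unadjusted p under 0.05). Between the agents over both genotypes, R848 minus CpG B was 0.98 for Dusp2, -1.50 for Dusp6 and 1.11 for Dusp16 (limma adjusted p = 0.0224, 0.0235 and 0.0106), with 2.84% of all genes called.

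Genes of the same pathways were followed on lists. Among all genes 12.1% rose and 17.3% fell after R848 (29.4% in either direction). After CpG B 8.69% were called in either direction, and for genotype 3.4%. The counts on the lists here and below are of few genes and were not tested against these shares. The kinases these phosphatases act on did not pass the test, with 0 of 5 tested MAP kinases called after R848 or CpG B (median -0.23 after R848, against -0.08 over all genes). Of 13 tested upstream kinases and adaptors, Map3k8, the kinase upstream of ERK in Toll-like receptor signalling, rose after R848 (2.84, limma adjusted p = 0.0109), and Map2k3 (-0.63) and Map3k1 (-1.03) fell. Of 6 other tested dual-specificity phosphatases none rose and 3 fell after R848, namely Dusp7 (-1.26), Dusp22 (-0.82) and Dusp19 (-0.79, and -0.47 with the recovered arrays), with a median of -0.34, and Dusp19 and Dusp22 also fell after CpG B. Dusp7, a cytoplasmic ERK phosphatase close to Dusp6, was called higher in KO over the 3 conditions (1.88, limma adjusted p = 0.00380), by 2.18 after R848, 1.56 after CpG B and 1.89 in untreated cells. The Dusp7 difference was thus there without stimulation, and whether it comes from the loss of IRAK2 was not tested. Of 7 other phosphatases that act on MAP kinases, Ppm1b rose (0.50) and Ppm1d fell (-0.65, and -0.47 with the recovered arrays at an adjusted p of 0.0826) after R848 in limma, and none was called after CpG B.

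The ERK output list moved in both directions after R848. Against the deposited untreated arrays 3 of 8 tested genes were higher and 5 lower, with a median of -1.35. Ier3 (2.24), Egr2 (2.17) and Phlda1 (1.26) rose, and Ccnd1 (-2.92), Etv5 (-2.15), Egr1 (-1.72), Fos (-1.51) and Etv1 (-1.18) fell. Etv1 lay below the lowest detected signal on every stimulated array. It thus entered the test only through untreated arrays, where it was high, and its fall is taken against background. Egr2 in untreated WT (6.45) was also below the lowest detected signal there (6.64), so its rise is partly taken against background. Egr1 and Fos are the genes that, like Dusp1, differed between the untreated arrays of both genotypes. With the recovered untreated arrays their R848 effects were 1.04 for Egr1 (limma adjusted p = 0.0870) and -0.26 for Fos (adjusted p = 0.446), and that of Phlda1 was 2.21 (adjusted p = 0.00387). The rest of the list then had 2.73 (Ier3), 1.46 (Egr2), -2.70 (Ccnd1), -2.28 (Etv5) and -1.34 (Etv1). The median of -1.35 and the counts of genes higher and lower thus depend on which untreated arrays are used. After CpG B 2 of 8 rose and 3 fell. Of 5 tested ERK feedback inhibitors, Errfi1 (1.32) rose and Rasa1 (-1.01) fell after R848, and none was called after CpG B. The JNK and AP-1 list had 4 of 6 genes higher after R848 and none lower, namely Batf (3.86), Junb (1.90), Jund (1.11) and Atf3 (1.01), with a median of 1.06. With the recovered arrays Atf3 did not pass (0.55, limma adjusted p = 0.151). After CpG B 3 of the 6, Batf, Junb and Jund, were higher. On the p38 list, 2 of 7 rose after R848, Zfp36 (2.12), whose product destabilises cytokine mRNA, and Mapkapk2 (1.88), and 3 fell, Zfp36l1 (-1.29), Mknk2 (-1.24) and Rps6ka5 (-1.22). With the recovered arrays Zfp36l1 had -0.55 (limma adjusted p = 0.0504). After CpG B 1 of the 7 rose and 2 fell, and Mapkapk3 was higher in KO over the 3 conditions (1.10, limma adjusted p = 0.0184). Mapkapk3 was also higher in untreated KO cells (1.38), and whether this comes from the loss of IRAK2 was not tested. None of 7 reference genes was called for either agent.

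**Figure D4:**
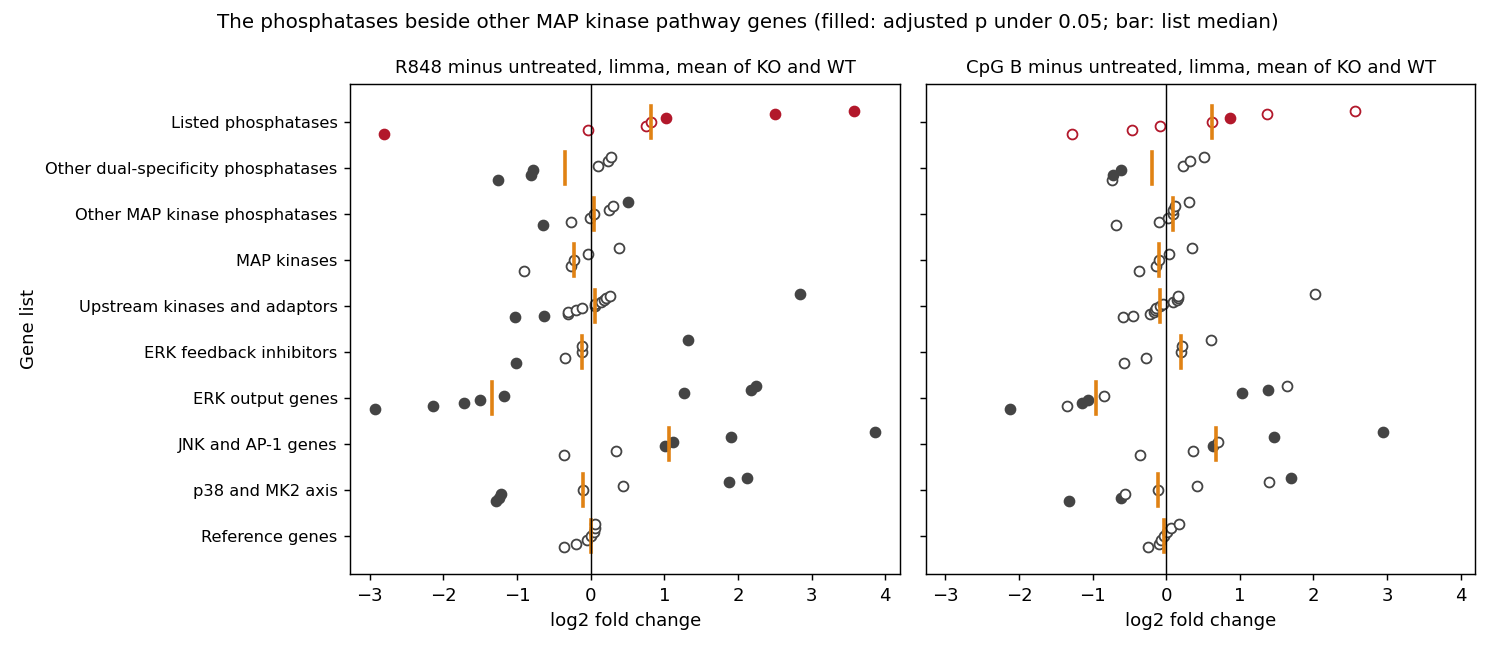
Log2 fold change from the additive limma fit (x axis) for the tested genes of each list (y axis) after R848 (left panel) and CpG B (right panel), filled where the adjusted p was under 0.05, with the list median as an orange bar. The 7 phosphatases (red) had a median of 0.82 after R848, with Dusp2 at 3.57 and Dusp6 at -2.81, and the 5 MAP kinases were all open. Dusp2 and Dusp8 were detected on stimulated arrays alone, so their values are taken against untreated signal not above background.

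The genes whose levels followed a phosphatase most closely were sought among 1086 genes detected on all 6 arrays with a span of at least 1 on the log2 scale. Dusp6 was most like Mknk2, Tsc22d3 and Atmin (Pearson r of 0.996, 0.994 and 0.992 over the 6 arrays). Dusp16 was most like Gch1, Pwp1 and Stat2 (0.998, 0.996 and 0.995). Dusp1 was most like Agrn, Irf7 and Phf11a (0.964, 0.953 and 0.931), and Dusp4 was most like Ednrb, Lima1 and Rras (0.955, 0.952 and 0.943). These are descriptions over 6 arrays that share their untreated and stimulated conditions, and the WT R848 array, farthest from the others for Dusp1, Dusp6 and Dusp16, weighs heavily in them.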

How the data were processed

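RNA was isolated with TRIZOL and amplified into biotin-labelled cRNA, per the labels' protocols. The authors deposited, per the file headers, probe intensity values not yet normalized, with a detection p-value beside each, and a processed intensity per probe and sample. The submitters' processing notes name BeadStudio, with no version. For the stimulated groups the processed values equal the quantile-normalized arrays within 0.5 units at 99.65% to 99.71% of probes, against 5.775% (KO) and 5.55% (WT) for the untreated groups. Read as means of 2 arrays, the untreated columns yield a further array per genotype whose sorted values lie within 0.5 units of the common distribution at 99.7% (KO) and 99.68% (WT) of probes, against 66.93% and 66.25% if read as means of 3.

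The neqc function of limma 3.58.1 (R 4.3.3) corrected background from the detection p-values, added an offset of 16, quantile-normalized and took log2. The platform annotation gave 1 symbol for 23978 probes, none for 1719 and several for 0, and a gene was represented by its probe with the highest mean. The additive limma fit had 2 residual degrees of freedom. A single-array difference counted from a log2 size of 1 upwards, that is 2-fold. A fold against a probe not above background used the lowest detected signal of that array or the probe's own signal, whichever was higher. Named genes were the members, up to 4 called genes per direction of each list, a gene that a result turned on, and the 3 most alike genes. The genes, lists and tests were chosen with earlier results of these data known. Alternatives were other background, scaling, filter, offset, probe and model choices, leaving out each array and the recovered arrays. The limma step was tested on simulated data. Sequences are from RefSeq (GRCm38.p6).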

Additional observations from a re-analysis of the deposited data

Results flagged for a closer look

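The R848 response of Dusp2 differed between the genotypes by -2.38 on the log2 scale (KO minus WT) in the 8-array limma fit, where it was past the threshold (adjusted p = 0.0374). Its untreated signal was not above background in either genotype, so the response and the spread used by that fit come from background and the call is not a measure of the stimulated signal. On the deposited arrays the same value was -2.21 with no test. KO minus WT after R848, where both arrays detected the gene, was -2.03. The R848 response of Dusp1 on the deposited arrays ran in opposite directions in the genotypes, -0.06 in KO and 1.69 in WT (KO minus WT -1.75), a difference that was not tested on those arrays. In the 8-array limma fit it was -1.78 and did not pass (adjusted p = 0.734), and against the recovered untreated arrays both genotypes were higher after R848. The R848 response of Dusp3 also had opposite signs, 0.04 in KO and -0.11 in WT (KO minus WT 0.15), which was not tested and is small beside the -0.40 by which the deposited WT untreated array differed from the recovered one.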

How the results depend on the processing

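No phosphatase past a threshold in the values reported changed direction under an alternative that was run, but Dusp1 in KO after R848, at -0.06 and under the threshold, was 1.27 and past 2-fold with the recovered untreated arrays. Dusp6 in KO after CpG B, past 2-fold at -1.21, was -0.72 and under 2-fold with those arrays. The phosphatases past 2-fold in that comparison then numbered 3 in place of 4. The number of genes called was 2103 for R848 and 1280 without the genotype term, and of phosphatases 4 and 2. For CpG B it was 621, against 251 without the detection filter, 259 without the genotype term and 1317 in the 8-array fit. The 1 phosphatase called for CpG B became 2 with median scaling, 5 in the 8-array fit, and 0 with the processed values, no detection filter, the mean of probes, no genotype term or the recovered untreated arrays (chosen after seeing the data). Between the agents, 0 genes and 0 phosphatases became 203 and 3 in the 8-array fit. For genotype, 243 genes became 140 without the detection filter, 76 without the agent term and 527 in the 8-array fit, where 0 phosphatases became 2, and the interaction went to 1 gene. Leaving out 1 array at a time gave 2 to 2233 genes and 0 to 5 phosphatases for R848, 1 to 1290 and 0 to 5 for CpG B, 0 to 522 and 0 to 4 between the agents, and 9 to 279 genes and 0 phosphatases for genotype. The interaction could not be fitted with an array left out. Past 2-fold on single arrays, on genes detected on all 6 arrays, the phosphatases numbered 3 in place of 5 (KO after R848) and 2 in place of 4 (KO after CpG B), and Dusp4 dropped to 0 calls in place of 1 in untreated cells with an offset of 50 or the mean of probes. At 1.5-fold they numbered 5 in place of 3 (KO minus WT after R848, 13.8% of all genes), 2 in place of 0 (after CpG B, 8.37%), 6 in place of 3 (difference of R848 responses, 12.4%) and 3 in place of 0 (of CpG B responses, 7.93%). Except where fewer genes or arrays were used, the cause was not tested. Median scaling shifted the median of all genes by -0.26 in KO minus WT after CpG B, by -0.11 in the CpG B response of KO and by -0.11 in the R848 response of WT. No paired analysis was possible because the labels carry no replicate numbers and each group has 1 deposited array. Signal near background limits Dusp2 in untreated cells, Dusp8 and Dusp10.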
